A study of Mus musculus with 18 samples.

Results

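The inflammatory cytokines and colony stimulating factors described here are 10 mouse genes: Tnf, Il6, Il1a, Il1b, Csf1, Csf2, Csf3, Lif, Ptgs2 and Il1rn. They were taken by name from a table of 49585 genes measured in 18 lung metastases. The metastases grew from AT3 cells, a line started from a mammary tumour of an MMTV-PyMT transgenic mouse. The cells carried GFP and mCherry and had spread to the lungs from the mammary fat pad. Lesions were captured by laser from frozen lung sections, and each library was built from 2 ng of RNA with a single cell kit. The NK group held 7 lesions from 2 mice, NK1 (3 lesions) and NK2 (4 lesions), which had received 60000 in vitro activated murine NK cells by vein on day 11. The Ctrl group held 11 lesions from 3 mice, KO1 (5 lesions), KO2 (4 lesions) and KO3 (2 lesions), which had received PBS on the same day. All 5 hosts, in both groups, carried the Rag2-/-IL2rg-/- genotype of the strain label, so they lacked their own T, B and NK cells but kept their myeloid cells. The growth protocol names Rag1 where the strain label names Rag2. No age or sex of the mice is used here. A lesion is written as mouse and number, so that NK1-3 is lesion 3 of mouse NK1. The question the groups pose is whether lesions that grew with transferred NK cells differ in these signals from lesions that grew without them.

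As background, IL-1 alpha (Il1a) and IL-1 beta (Il1b) bind the IL-1 receptor, while the IL-1 receptor antagonist (Il1rn) occupies the same receptor without starting a signal. IL-1 and TNF act through NF-kB, which in turn raises transcription of IL-6, the colony stimulating factors and the inducible prostaglandin synthase COX-2 (Ptgs2). IL-6 and LIF signal through the shared receptor chain gp130 (Il6st) to STAT3. The products of Csf1, Csf2 and Csf3 (M-CSF, GM-CSF and G-CSF) support the growth of macrophages, of mixed myeloid cells and of neutrophils. In mouse mammary carcinoma models, tumour-derived M-CSF and G-CSF are known to bring macrophages and neutrophils into the tumour and the lung. NK cells themselves can make TNF and GM-CSF once activated.

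Promoter sequences are shown for 4 of these genes, because the IL-1 pair and Csf1 held the most counts and because the classic regulatory motifs of cytokine genes stand close together in the Il6 promoter. Each is the 250 bases before a RefSeq transcription start on GRCm38.p6, written 5′ to 3′ on the strand of the gene. Of the 10 genes, 9 matched the promoter table; Csf3 had no entry. Il1rn has 3 starts there, and the first is shown. Capitals mark letters that match a kappa B motif (GGGA, any 4 bases, then CC), AP-1 (TGANTCA), C/EBP (TTGCNNAA) or the TATA box (TATAAA), each searched on both strands.
Il1b, chr2:129371140-129371389, minus strand: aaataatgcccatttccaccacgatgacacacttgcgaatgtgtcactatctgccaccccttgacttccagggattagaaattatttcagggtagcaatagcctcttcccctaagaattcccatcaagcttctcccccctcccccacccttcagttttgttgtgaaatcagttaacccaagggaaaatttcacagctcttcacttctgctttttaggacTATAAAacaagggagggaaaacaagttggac
Il1rn, chr2:24336610-24336859, plus strand: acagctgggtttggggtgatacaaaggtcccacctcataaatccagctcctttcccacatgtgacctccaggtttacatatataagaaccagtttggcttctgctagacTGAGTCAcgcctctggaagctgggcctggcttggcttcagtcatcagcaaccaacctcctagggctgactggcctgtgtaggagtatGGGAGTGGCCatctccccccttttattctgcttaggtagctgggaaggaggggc
Csf1, chr3:107760470-107760719, minus strand: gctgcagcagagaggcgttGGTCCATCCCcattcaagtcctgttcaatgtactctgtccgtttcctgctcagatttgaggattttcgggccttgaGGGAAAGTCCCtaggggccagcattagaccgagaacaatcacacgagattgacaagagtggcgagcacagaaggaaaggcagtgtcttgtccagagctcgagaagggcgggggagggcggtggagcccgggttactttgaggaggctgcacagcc
Il6, chr5:30012864-30013113, plus strand: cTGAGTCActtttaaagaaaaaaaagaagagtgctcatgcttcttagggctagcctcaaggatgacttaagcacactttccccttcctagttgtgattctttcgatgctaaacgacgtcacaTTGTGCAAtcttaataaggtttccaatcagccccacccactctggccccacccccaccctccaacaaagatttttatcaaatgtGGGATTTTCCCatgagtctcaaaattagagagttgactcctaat
The Il1b window held a TATA box 31 bases before the start and no other of these motifs. The Il1rn window held a kappa B match beginning at -54 and an AP-1 match beginning at -141. The Csf1 window held kappa B matches beginning at -231, -155 and -154, of which the last and the one before it overlap on opposite strands. The Il6 window held AP-1 at -249, C/EBP at -128 and overlapping kappa B matches at -44 and -43. Over the 9 genes, a kappa B match stood in 4 (Il1rn, Csf1, Il6 and Lif), AP-1 in 4 (Il1rn, Il1a, Il6 and Lif), C/EBP in 3 (Ptgs2, Il6 and Csf2) and TATA in 3 (Il1a, Il1b and Tnf). Counted by promoter, the matches stood in 4, 4, 3 and 3 of 11, as the other Il1rn starts held none. Of 32851 promoters in the table, 17.6% held the kappa B motif, 6.75% AP-1, 9.56% C/EBP and 12.4% TATA. These matches are letters in a window and not measured binding.

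The libraries differed in ways that touch every value below. Total counts ranged from 2964242 to 11798897 over the NK lesions and from 5690467 to 9816244 over the Ctrl lesions. Reads of mt-Rnr2, a ribosomal RNA of mitochondria, made up 47.6% to 65.3% of counts in the 3 NK1 lesions and 13.7% to 22.8% in the 4 NK2 lesions. Among Ctrl lesions it took over 40% in KO1-2 (58.3%), KO1-5 (68.7%) and KO3-2 (44.1%). Epithelial markers (Krt8, Krt18, Krt19, Epcam and Cdh1), which mammary tumour cells and airway cells share, were detected in both groups, with summed levels of 209 and 117 CPM in the NK mice and 207, 117 and 209 CPM in the Ctrl mice. NK cell markers summed to 25.6 and 17.04 CPM in the NK mice, against 4.07, 0.176 and 3.22 CPM in KO1, KO2 and KO3. CPM are counts scaled to the size and composition of each library, with the lesions of a mouse summed. Markers of lung and other tissues differed widely between mice. Airway markers summed to 4920 and 646 CPM in NK1 and NK2, against 2431, 0.79 and 10513 CPM in KO1, KO2 and KO3, with 23920 CPM in the highest NK lesion. That lesion, NK1-3, had 21338 CPM of the airway gene Scgb1a1 and the highest epithelial sum of the NK lesions, 780 CPM, and the part of airway cells in that sum was not tested. Alveolar markers summed to 392.3 and 1453 CPM in the NK mice and 1063, 1143 and 1608 CPM in the Ctrl mice. Mesothelial markers summed to 44.4 and 0.178 CPM in the NK mice and 0.696, 90.85 and 6.53 CPM in the Ctrl mice. Mast cell markers reached 58.7 CPM in NK1 and at most 0.589 CPM in any other mouse. Fibroblast markers summed to 5471 and 1066 CPM in NK1 and NK2, against 260 to 679 CPM in the Ctrl mice. Most of the NK sums was Col3a1, with 4652 CPM in NK1 and 590 CPM in NK2. Col3a1 and Lum were above all Ctrl mice in both NK mice, while Col1a1, Col1a2, Pdgfra and Dcn were not. Adipocyte markers reached 198 CPM and cardiac muscle markers 51.7 CPM in NK1, and at most 1.74 and 3.03 CPM in any Ctrl mouse.

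None of the 10 genes passed the test between NK and Ctrl lesions at an adjusted p of 0.05. Of them, 8 had enough counts to be tested over mice, 2 against 3, by a quasi-likelihood F test (edgeR). In that test 0% of all 16917 genes tested were called, and 2.52% had an unadjusted p under 0.05. DESeq2 called 21 genes, none of them among these 10. Each adjusted p of the 8 genes was 0.9998, as it was for every gene named from the related lists. A single one of the 8, Il1b, had an unadjusted p under 0.05. Of the 8, 3 had a positive log2 fold change and 5 a negative one, with a median of -0.39 against -0.03 over all genes tested. Both NK mice lay below all 3 Ctrl mice for 1 of the 8 (Il1b), as for 6.86% of all genes, and above all 3 for none, as for 7.94% of all genes. The common coefficient of variation between mice was 64.9%, which limits what 5 mice can show. In bulk lesions, fewer cells of a type and less RNA per cell cannot be told apart.

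**Figure D1:**
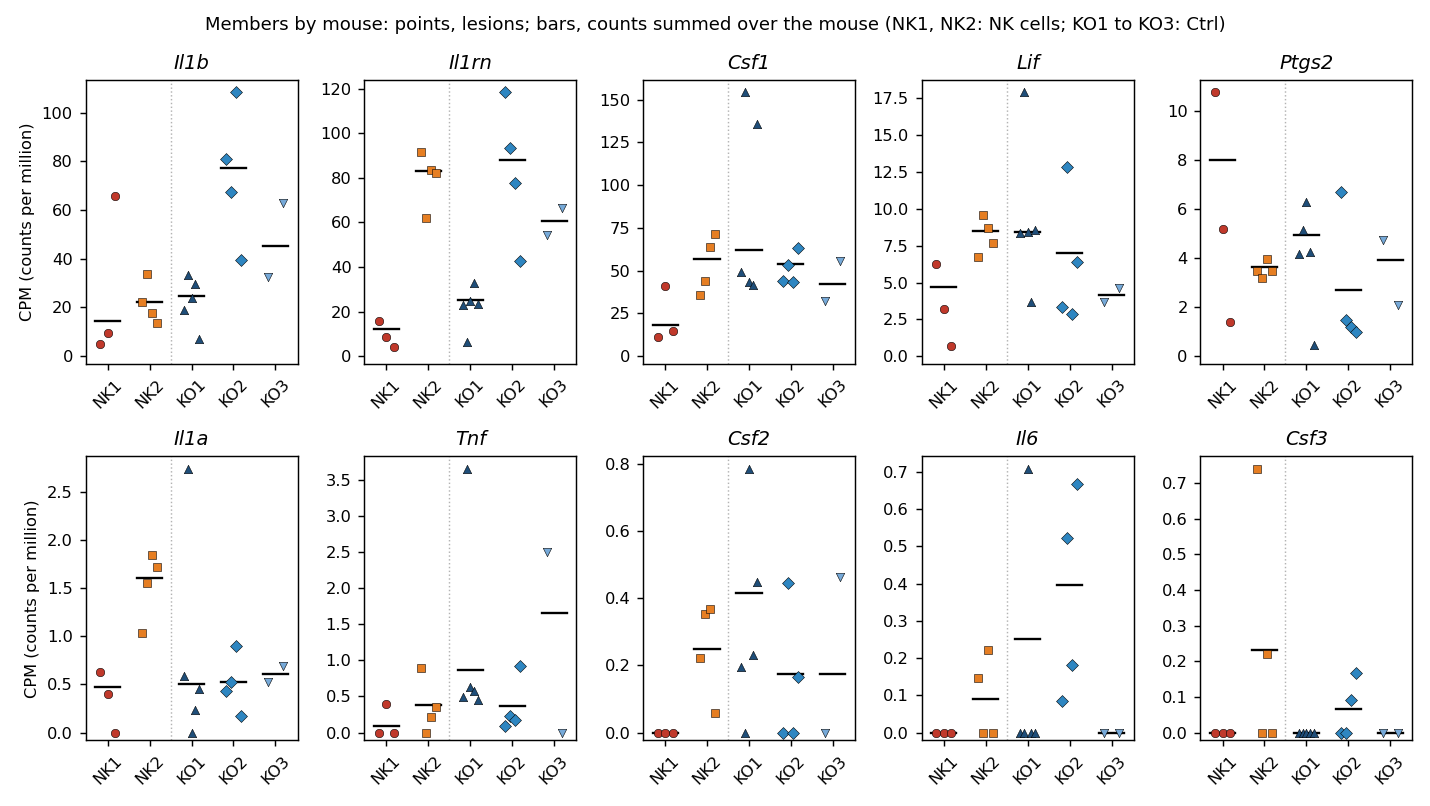
Level of each gene in CPM (vertical axis, its own range per panel) by mouse, with points for the 18 lesions and bars for the counts summed over each mouse; NK1 and NK2 received NK cells and KO1 to KO3 are Ctrl. The bars of Il1b stand at 14.3 and 22.3 CPM in the NK mice and at 24.6 to 77.3 CPM in the Ctrl mice, while single lesions of both groups overlap for every gene.

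Il1b, the secreted IL-1 that needs cleavage by caspase-1, was the member whose mice separated. It had 4.996, 9.59 and 65.8 CPM in the NK1 lesions and 22.3, 33.6, 17.8 and 13.6 CPM in the NK2 lesions. The KO1 lesions had 18.9, 33.4, 24.0, 29.6 and 7.19 CPM, the KO2 lesions 81.0, 67.4, 108 and 39.5 CPM, and the KO3 lesions 32.6 and 62.8 CPM. Single lesions overlapped between the groups: NK1-3 was above 8 of the Ctrl lesions, and KO1-5 was below 6 of the NK lesions. Summed over mice, Il1b stood at 14.3 and 22.3 CPM in the NK mice (mean 18.3 ± 5.69, SD, n = 2) and at 24.6, 77.3 and 45.2 CPM in the Ctrl mice (49.0 ± 26.6, SD, n = 3). The gap between NK2 and KO1 was thus small beside the spread among Ctrl mice. This gave a log2 fold change of -1.42 ± 0.56 (SE), with an adjusted p of 0.9998. Without lesion NK1-1, the deepest of NK1, it was -0.86. Without mouse NK2 it was -1.78.

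Neutrophil markers went with Il1b only in part. KO2 and KO3 were highest for both, but KO3 had the higher marker sum and KO2 the higher Il1b. NK1 had the lowest Il1b and, through the marker Ltf alone, a higher marker sum than NK2 and KO1. Every other marker of the list was lowest in NK1, as Il1b was. All 10 markers had counts in every mouse, though up to 5 were at 0 in a single NK lesion (NK1-3: Ly6g, Retnlg, Ngp, Camp and Mmp8). That lesion had the highest Il1b of the NK lesions, 65.8 CPM. They summed to 555 and 238 CPM in NK1 and NK2, against 282, 1824 and 2767 CPM in KO1, KO2 and KO3. By lesion the sum ranged from 100 to 839 CPM in the NK lesions and from 192 to 4979 CPM in the Ctrl lesions. The NK1 sum was largely the granule protein gene Ltf, with 452 CPM in NK1, since lesion NK1-1 alone held 4732 of its counts. S100a9, the most abundant of these markers in the other mice, stood at 54.9 and 109 CPM in the NK mice and at 106, 944 and 1550 CPM in the Ctrl mice. KO1, the Ctrl mouse with the lowest Il1b, thus had the lowest S100a9 of its group. Macrophage markers summed to 328 and 691 CPM in the NK mice and to 320, 517 and 596 CPM in the Ctrl mice. The part of either cell type in the Il1b levels was not tested.

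Il1rn, the antagonist, varied far more between mice than between the groups. It had 15.6, 8.39 and 4.201 CPM in the NK1 lesions, and 91.7, 62.1, 83.3 and 82.2 CPM in the NK2 lesions. The Ctrl lesions had 23.1, 6.37, 24.7, 32.6 and 23.4 CPM in KO1, then 118, 93.5, 77.8 and 42.6 CPM in KO2, and 54.2 and 66.3 CPM in KO3. All lesions of NK2 thus lay above all lesions of NK1, and all lesions of KO2 and KO3 above all of KO1. By mouse the levels were 12.1 and 82.8 CPM with NK cells and 25.3, 87.9 and 60.7 CPM in Ctrl, so that the groups overlapped. Between the groups the log2 fold change was -0.28 ± 0.80 (SE). It took the opposite sign, 0.52, without mouse NK1. Of the sum of squares of log2 CPM over lesions, 81.6% lay between the 5 mice for Il1rn, against 48.8% for Il1b and 13.5% for Ptgs2.

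The count of Il1b per count of Il1rn was lowest in mouse NK2. In the NK2 lesions this ratio was 0.166 to 0.542. In NK1 it ranged from 0.32 to 15.7, where the upper value is NK1-3 with 94 counts of Il1b and 6 of Il1rn. The Ctrl lesions ranged from 0.308 in KO1-5 to 5.24 in KO1-2, and 9 of the 11 were below 1. NK1-1 (0.32) and KO1-5 lay within the NK2 range. By mouse the ratio was 1.18 in NK1 and 0.269 in NK2, against 0.973, 0.880 and 0.744 in KO1, KO2 and KO3. Divided by merged exon length, since Il1rn has more exon bases than Il1b, the ratio was 3.43 in NK1 and 0.782 in NK2, against 2.82, 2.55 and 2.16 in the Ctrl mice. That length joins the exons of every annotated transcript (6 for Il1rn, 3 for Il1b) and need not be that of the mRNA present. The mean log2 ratio of counts was -0.83 ± 1.51 in the NK mice (SD, n = 2) and -0.22 ± 0.20 in the Ctrl mice (SD, n = 3). The difference was -0.61, with a two-sided p of 0.8 in an exact permutation test over mice, where 0.2 is the smallest p that 2 against 3 mice can give. The NK mice lay on either side of the 3 Ctrl mice, and without NK2 the difference was 0.46. This ratio was chosen after the values were seen.

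**Figure D2:**
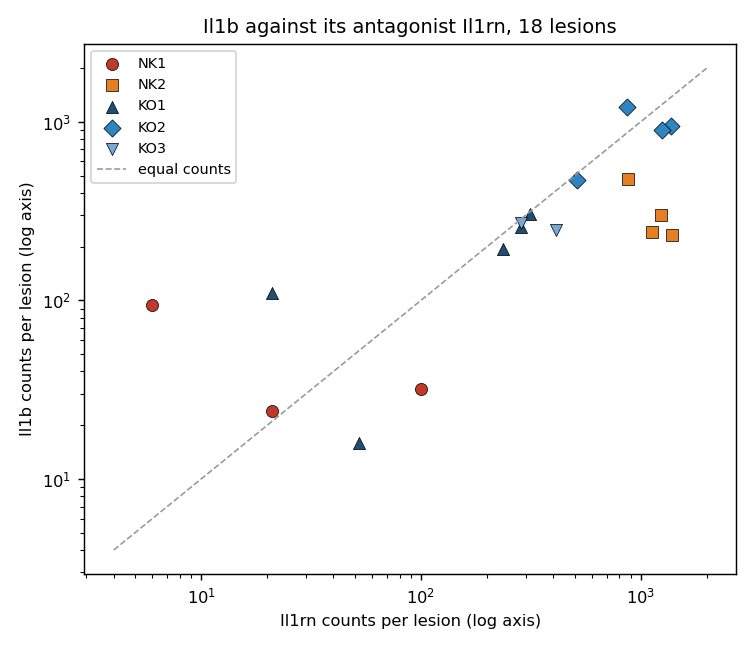
Counts of Il1b (vertical) against counts of Il1rn (horizontal) in each of the 18 lesions, both on log axes, coloured by mouse; the dashed line marks equal counts. The 4 NK2 lesions lie below the line at ratios of 0.166 to 0.542, as do 9 of the 11 Ctrl lesions at 0.308 or more, and NK1-3 lies farthest above it at 15.7.

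Il1a, the IL-1 that is active without cleavage, was scarce, with 95 counts over the NK lesions and 49 over the Ctrl lesions. Mouse NK2 held 14, 22, 25 and 29 counts in its lesions, while NK1 held 4, 1 and 0. No Ctrl lesion held more than 10 counts. Scaled to its smaller library, though, KO1-2 (9 counts) had 2.73 CPM, above the highest NK lesion, NK2-3, at 1.84 CPM. By mouse the level was 0.476 CPM in NK1 and 1.61 CPM in NK2, against 0.501, 0.527 and 0.609 CPM in KO1, KO2 and KO3. NK2 was thus the highest mouse and NK1 the lowest. Its log2 fold change of 0.96 ± 1.03 (SE) rested on NK2, since it was -0.19 without that mouse.

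Tnf, the founding member of the TNF family, was near the limit of detection. Over the NK lesions it had 22 counts, in 4 of 7 lesions, and over the Ctrl lesions 67 counts, in 10 of 11. By mouse it stood at 0.0952 and 0.375 CPM in the NK mice and at 0.863, 0.373 and 1.65 CPM in the Ctrl mice. NK1 held a single count, and NK2 and KO2 were nearly level. The log2 fold change was -1.89 ± 1.26 (SE). It was -0.85 without lesion KO3-1, which held 19 of the Ctrl counts.

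Il6, which drives the acute phase response through STAT3, was too rare to be tested over mice. It had 5 counts in the NK lesions, all in NK2, and 27 in the Ctrl lesions, 9 in KO1, 18 in KO2 and 0 in KO3. The 9 counts of KO1 came from lesion KO1-3 alone. Relative to the scaled library sizes, the ratio of NK to Ctrl was 0.259 (95% exact interval 0.0778 to 0.682, which covers counting error only). A count of 0 in mouse NK1 allows up to 0.286 CPM, which is above the 0.251 CPM of KO1 and below the 0.395 CPM of KO2. NK2 had 0.0892 CPM, and KO3 had 0 counts, which allow up to 0.261 CPM.

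Lif, the gp130 cytokine that keeps many progenitor cells undifferentiated, was detected in all 18 lesions and did not separate the groups. It ranged from 0.700 CPM in NK1-3 to 9.60 CPM in NK2-2 over the NK lesions, with a median of 6.72 CPM. Over the Ctrl lesions it ranged from 2.88 CPM in KO2-3 to 17.9 CPM in KO1-2, with a median of 6.43 CPM. The mice stood at 4.66 and 8.48 CPM with NK cells and at 8.44, 7.02 and 4.18 CPM in Ctrl. Between NK and Ctrl the log2 fold change was 0.01 ± 0.61 (SE), with either sign among the alternatives run.

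Csf1, the macrophage growth factor, was the abundant colony stimulating factor, with 3373 counts over the NK lesions and 5186 over the Ctrl lesions. It had 10.9, 40.8 and 14.7 CPM in the NK1 lesions and 35.9, 43.9, 63.6 and 71.3 CPM in the NK2 lesions. The Ctrl lesions had 49.2, 155, 43.6, 41.7 and 136 CPM in KO1, 43.7, 53.4, 43.3 and 63.3 CPM in KO2, and 32.5 and 55.4 CPM in KO3. The highest lesions, KO1-2 and KO1-5, were also those of KO1 with over 40% mt-Rnr2, and the part of that share in their level was not tested. By mouse Csf1 stood at 18.4 and 56.7 CPM in the NK mice (37.6 ± 27.1, SD, n = 2) and at 62.2, 54.1 and 42.3 CPM in the Ctrl mice (52.9 ± 10.02, SD, n = 3). NK1 was below every Ctrl mouse, while NK2 lay among them. The log2 fold change was -0.49 ± 0.52 (SE), and 0.11 without NK1. It was 0.32 without the lesions of over 40% mt-Rnr2, which leaves out all of NK1.

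Csf2, which supports granulocytes and macrophages, had 14 counts over the NK lesions and 25 over the Ctrl lesions. All 14 were in NK2, and the 0 counts of NK1 allow up to 0.286 CPM. The level was 0.250 CPM in NK2 and 0.418, 0.176 and 0.174 CPM in the Ctrl mice, so that NK2 lay within the Ctrl range. Its log2 fold change was -0.80 ± 1.49 (SE). Csf3, the neutrophil growth factor, had 13 counts in the NK lesions, 10 of them in NK2-1 and 3 in NK2-3. The Ctrl lesions held 3 counts in all, in KO2. Relative to the scaled library sizes, the ratio of NK to Ctrl was 6.06, with a 95% exact interval of 1.66 to 33.1 for counting error only. A single lesion carried 76.9% of the NK counts, and 4 of the 18 lesions had any.

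Ptgs2, the enzyme that commits arachidonic acid to prostaglandins, was detected in all 18 lesions at low levels. It had 10.8, 5.20 and 1.40 CPM in NK1 and 3.47, 3.18, 3.98 and 3.48 CPM in NK2. The Ctrl lesions ranged from 0.449 CPM in KO1-5 to 6.70 CPM in KO2-1, with a median of 4.19 CPM. The NK2 lesions were close together, and the other mice with more than 2 lesions were spread widely. By mouse Ptgs2 stood at 7.99 and 3.66 CPM with NK cells (5.83 ± 3.07, SD, n = 2) and at 4.96, 2.70 and 3.92 CPM in Ctrl (3.86 ± 1.13, SD, n = 3). The log2 fold change was 0.59 ± 0.67 (SE) and came to -0.07 without NK1.

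**Figure D3:**
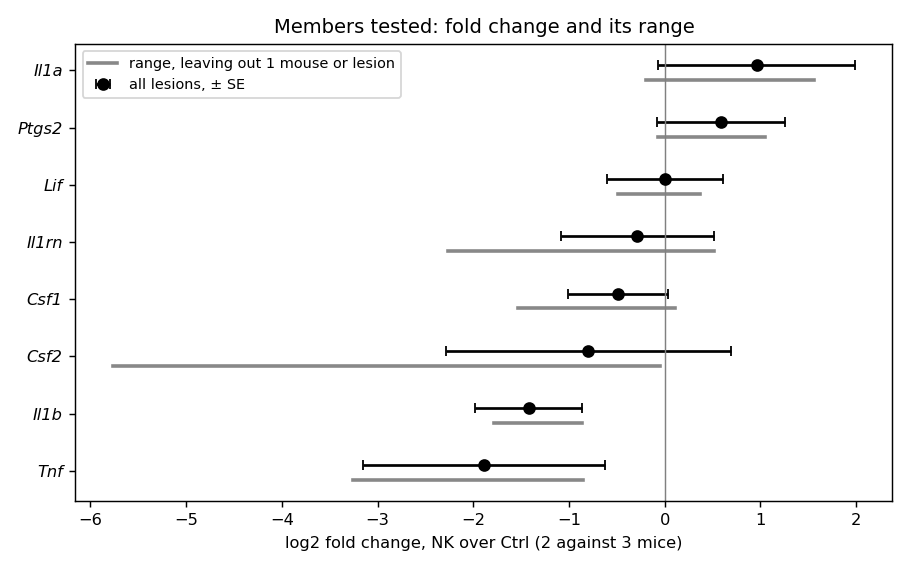
Log2 fold change of NK over Ctrl (horizontal axis) for the 8 genes tested, with points and black bars for the estimate and its SE over 2 against 3 mice, and grey bars for the range when 1 mouse or lesion was left out. The grey bars of Tnf, Il1b and Csf2 stay below 0 (Csf2 passed the filter in 12 of the 23 fits), that of Il1b between -1.78 and -0.86, and those of the other 5 genes cross 0.

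Divided by the length of the merged exons, the 10 genes fell into an abundant and a rare set. Over all 5 mice Il1b had 19.3 ± 13.3 CPM per kb, Il1rn 9.71 ± 6.13 and Csf1 8.85 ± 3.30 CPM per kb (SD, n = 5). Lif followed at 1.51 and Ptgs2 at 1.01 CPM per kb. Tnf (0.410), Il1a (0.377), Csf2 (0.254), Il6 (0.0605) and Csf3 (0.0421 CPM per kb) came last. Only the step between Csf1 and Lif was wider than the spread: the lowest mouse for Csf1 had 3.48 CPM per kb, and the highest for Lif 1.95. All other neighbours in this order overlapped between mice. Il1b led in NK1 and in the 3 Ctrl mice, at 7.49 CPM per kb in NK1 and 12.9 to 40.6 in the Ctrl mice. By counts Il1rn stood above Il1b in each Ctrl mouse, so the lead of Il1b there rests on the length used. In NK2 it was Il1rn that led, with 14.97 CPM per kb of Il1rn and 11.7 of Il1b.

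**Figure D4:**
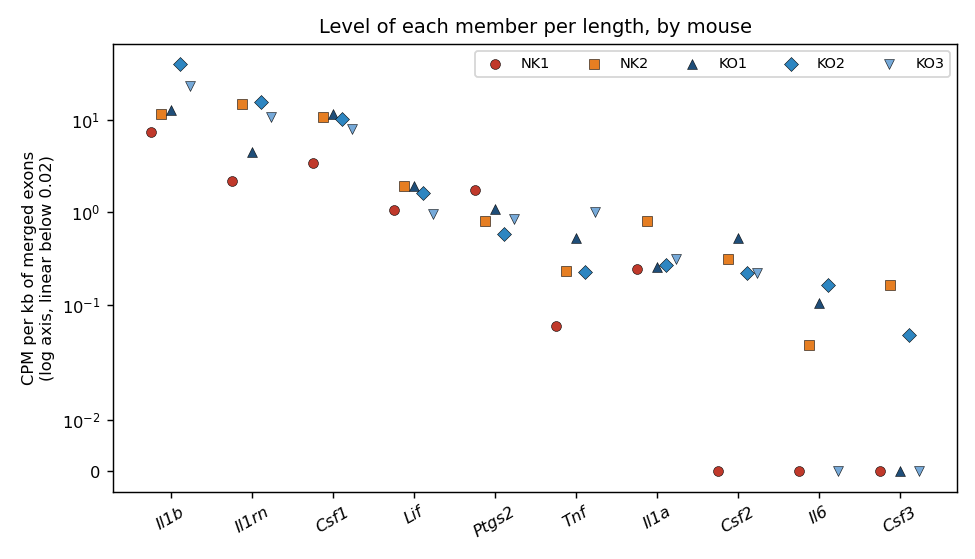
Level of the 10 genes in CPM per kb of merged exons (vertical log axis, linear below 0.02), ordered from the highest mean to the lowest, with a point for each mouse. Il1b, Il1rn and Csf1 stand above all others, at means of 19.3, 9.71 and 8.85 CPM per kb, and points at 0 are mice with no count.

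Because mice with the same treatment differed so much, they were also compared with each other, with lesions as replicates. These tests were chosen after the data were seen, and their p-values measure only the spread between lesions of a mouse. NK2 over NK1 gave no call, at 0% of 13400 genes, while 17.2% had an unadjusted p under 0.05. Il1rn had the smallest p of the members there. Its log2 fold change of NK2 over NK1 was 2.97, with an adjusted p of 0.101. Il1rn was thus not called, and its adjusted p depended on single lesions. The adjusted p was 0.0392 without NK1-3, 0.0425 without NK1-1 and 0.0774 without NK1-2. It was 0.222, 0.333, 0.366 and 0.349 without NK2-1, NK2-2, NK2-3 and NK2-4, and 0.0299 without the filter on low counts. Il1b had -0.40 (adjusted p = 0.833), Csf1 1.18 (0.309) and Lif 1.12 (0.421). NK1 and NK2 also differ in their shares of mt-Rnr2, given above, and the part of that in these folds was not tested.

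Among the 3 Ctrl mice, 2.70% of 14677 genes were called and 24.2% had an unadjusted p under 0.05. None of the 6 members tested was called. Il1rn came closest, with log2 fold changes of 1.88 for KO2 over KO1 and 1.47 for KO3 over KO1 (adjusted p = 0.0531). For Il1b the values were 1.68 and 1.09 (adjusted p = 0.0878). With a lesion left out, the adjusted p ranged from 0.0235 (without KO3-1) to 0.127 (without KO2-2) for Il1rn and from 0.0337 (without KO3-1) to 0.188 (without KO2-3) for Il1b. KO3-1 was the one lesion of the 11 without which they passed. Without the filter on low counts the values were 0.0142 and 0.0399. Tnf, Csf1, Lif and Ptgs2 had adjusted p-values of 0.339 to 0.804. The Ctrl mice with more Il1b and Il1rn, KO2 and KO3, were those with more neutrophil markers, at 1824 and 2767 CPM, against 282 CPM in KO1. KO3 had more of the markers than KO2 but less of both genes. NK2 had the lowest marker sum of all mice, 238 CPM, because Ltf raised the sum of NK1. Every other marker was lower in NK1 than in NK2. Il1rn stood at 82.8 CPM in NK2 and at 12.1 CPM in NK1. The part of neutrophils in the differences among the Ctrl mice was not tested.

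No receptor of these ligands passed the test. Of 17 receptor genes, all tested, 4 had a positive and 13 a negative log2 fold change, with a median of -0.58. Over all 16917 genes tested, 8172 were positive and 8745 negative. Both NK mice lay below all Ctrl mice for 4 of the 17 receptors and above them for 1, against 6.86% and 7.94% of all genes tested. Csf3r, the G-CSF receptor and itself one of the neutrophil markers, had 25.8 and 41.4 CPM in the NK mice and 55.8, 190 and 237 CPM in the Ctrl mice. Both NK mice lay below all Ctrl mice, and the log2 fold change was -2.26 ± 0.65 (SE). Without the filter on low counts Csf3r was called, with an adjusted p of 0.00494, as were 224 of all 26158 genes in that fit. Csf2rb, the shared signalling chain of the GM-CSF receptor, had a log2 fold change of -1.34 ± 0.68, and Tnfrsf1a, the main TNF receptor, -0.32 ± 0.40 (SE). A further receptor with an unadjusted p under 0.05, named after its values were seen, was Il1r1, the signalling IL-1 receptor. It had 123 and 56.0 CPM in the NK mice and 33.3, 34.9 and 49.2 CPM in the Ctrl mice, with a log2 fold change of 1.198 ± 0.44 (SE). Il1r2, the decoy IL-1 receptor, and Csf1r were also named after their values were seen. Il1r2 had 2.47 and 4.75 CPM in the NK mice and 4.82, 6.23 and 6.61 CPM in the Ctrl mice. Csf1r, the M-CSF receptor of macrophages, had 45.3 and 60.2 CPM in the NK mice and 61.7, 60.0 and 70.7 CPM in the Ctrl mice, so NK2 and KO2 were nearly level.

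Genes downstream of these cytokines gave no call either. Of 20 NF-kB targets, 19 were tested, 4 positive and 15 negative, with a median log2 fold change of -0.34. Both NK mice lay below all Ctrl mice for 2 of the 19 and above them for 3, against 6.86% and 7.94% of all genes tested. The 3 above, named after their values were seen, were Cxcl1, Rel and Zfp36. Tnfaip2, induced by TNF, had -0.82, Nfkb1, an NF-kB subunit, -0.42, and Vcam1, an adhesion molecule, 0.65. Nfkbiz, a nuclear regulator of NF-kB named after its values were seen, was the 1 target with an unadjusted p under 0.05 in the edgeR test. It had 12.8 and 10.2 CPM in the NK mice and 18.9, 30.4 and 47.0 CPM in the Ctrl mice, at -1.48 ± 0.51 (SE). Of 13 STAT3 targets, all tested, 0 were called. All 13 had a negative log2 fold change, as 8745 of all 16917 genes did, with a median of -0.42. Both NK mice lay below all Ctrl mice for 2 of the 13, against 6.86% of all genes tested. The acute phase gene Hp had -1.17 ± 0.79 and the siderophore-binding Lcn2 -2.41 ± 1.28, while Il4ra had -0.84 ± 0.41 (SE). Lcn2 had 3.81 and 59.9 CPM in the NK mice and 43.1, 107 and 362 CPM in the Ctrl mice, so NK2 lay above KO1. It was called without the filter on low counts, at an adjusted p of 0.0024, as were 224 of all 26158 genes in that fit. Hp had 203 and 77.1 CPM in the NK mice and 283, 82.5 and 576 CPM in KO1, KO2 and KO3. It was thus highest in KO3, KO1 and NK1, the mice with the most airway markers, and low in KO2, which had many neutrophil markers. Hp and Lcn2 are also made by neutrophils, and the part of neutrophils or airway cells in either gene was not tested. Saa3, an acute phase gene named after its values were seen, had 3.05 and 5.16 CPM in the NK mice and 5.37, 29.4 and 15.9 CPM in the Ctrl mice.

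The processing steps around IL-1 and prostaglandins varied in both directions. Of 8 inflammasome genes, which make and use the caspase that cleaves IL-1 beta, 2 were positive and 6 negative, with a median of -0.58. Aim2, a DNA sensor, had 0.05, Gsdmd, the pore that lets IL-1 beta out, -0.44, and Casp4 -1.18 on the log2 scale. Casp1, the caspase itself, named after its values were seen, had 0.857 and 3.69 CPM in the NK mice and 2.59, 10.8 and 8.96 CPM in the Ctrl mice. Of 12 prostaglandin genes, 11 were tested, with 5 positive, 6 negative and a median of -0.13. Ptges, the inducible prostaglandin E synthase that works beside Ptgs2, had 176 and 319 CPM in the NK mice and 653, 342 and 522 CPM in the Ctrl mice. Its log2 fold change was -1.03 ± 0.47 (SE), while Ptgs2 itself did not separate. Both NK mice lay below all Ctrl mice for 1 of the 11 (Ptges) and above them for 1. Over all genes tested the shares were 6.86% and 7.94%. The gene above, named after its values were seen, was Hpgds. It had 9.52 and 8.30 CPM in the NK mice and 4.68, 3.16 and 3.57 CPM in the Ctrl mice, at 1.23 ± 0.56 (SE). Ptges3 had 0.27 and the prostaglandin transporter Slco2a1 -0.43 on the log2 scale. Of 26 related cytokines, 22 were found in the table by symbol and 12 tested, with 4 positive, 8 negative and a median of -0.21. Il33, an alarmin, had 0.78, Kitl, the stem cell factor, -0.0017 and Il11, a gp130 cytokine, 1.90 on the log2 scale. Il11 stood at 1.14 and 26.8 CPM in NK1 and NK2, against 2.39, 8.21 and 0.609 CPM in the Ctrl mice. Of 8 genes that govern decay of AU-rich cytokine mRNAs, 4 were positive and 4 negative, with a median of -0.01. Zfp36l2 had 0.07, Elavl1 -0.44 and Zfp36l1 0.02.

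**Figure D5:**
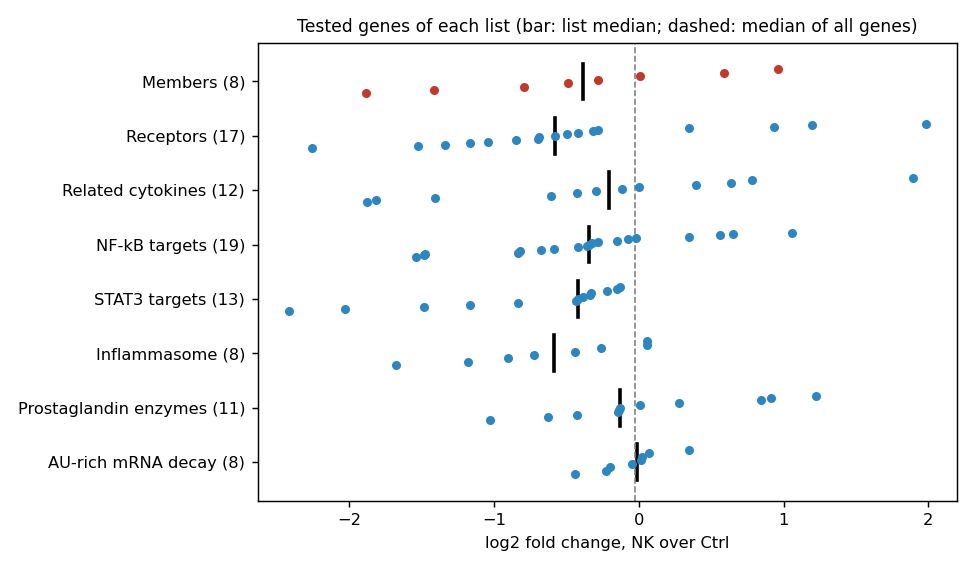
Log2 fold change of NK over Ctrl (horizontal axis) for every tested gene of the 10 members and of 7 related lists, 1 point per gene, with a black bar for each list's median and a dashed line for the median of all genes tested (-0.03). The medians run from -0.58 for receptors and inflammasome genes to -0.01 for the mRNA decay genes, and no point passed the test.

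Across the 18 lesions the genes most like each member in log2 CPM were found by Spearman's rho, which is given here as a description. Lesions of a mouse share their host, and depth and the mt-Rnr2 share vary with it. Il1b was most like Pxn (0.91), Stap2 (0.89) and Ndufb11 (0.87). Il1rn was most like Gm2a (0.94), Sirpb1c (0.89) and Taf12 (0.89), and Csf1 like 1110008L16Rik (0.90), Dagla (0.83) and Nars (0.83). Lif was most like Gm38319 (0.87), Rpain (0.81) and Uqcrc2 (0.79), and Ptgs2 like Odf2l (0.81), Gm29666 (0.81) and Gm3830 (0.77). The rarer Il1a was most like Prkab2 (0.84), Cd200r4 (0.78) and Fmo1 (0.77). Tnf was most like Klhl18 (0.83), Tfap2a (0.81) and Asxl2 (0.78), and Csf2 like Armcx2 (0.85), Rpusd1 (0.84) and Fzr1 (0.83). Among the members themselves the highest rho was that of Csf1 with Lif, at 0.66. Il1b and Il1rn had a rho of 0.35, and Il1b and Ptgs2 -0.32. All other pairs of the 5 genes detected in every lesion, apart from Csf1 with Ptgs2 (-0.33), lay between -0.23 and 0.18.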

How the data were processed

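RNA was measured in 18 lesions of 5 mice, and the mouse was the replicate. The submitters' processing notes name mm10, DESeq2, RSEM 1.2.28, STAR and bcl2fastq 2.17. The sources used here give no strand setting, so overlapping antisense genes are uncertain. The authors deposited expected counts per gene, unscaled, which were rounded here and summed over the lesions of each mouse. A second table deposited by the authors holds normalized values, log2 by their range, and served as an alternative. Of 49585 identifiers 49326 had a symbol in GENCODE M21, which also gave exon lengths.

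NK and Ctrl mice were compared with edgeR 4.0.16 (quasi-likelihood F test, TMM, filterByExpr with minimum count 10 and total 15) in R 4.3.3, with Benjamini-Hochberg adjustment over all 16917 genes kept and a threshold of 0.05. The SE of a log2 fold change is its size over the square root of F. Ratios of rare genes have exact 95% intervals, and a count of 0 allows up to 3 counts; both cover counting error only. Likeness used log2 CPM with a prior count of 2 over genes kept, for members with a count in at least 9 lesions. Named genes are the 10 members and, in each of 7 related lists, genes past the threshold or else the 3 with the highest mean count; any other is marked as named after its values were seen. The 12 marker lists gave 0 calls. Members and lists were chosen with earlier results of these data known, and tests between mice of a group were added after the data were seen. Alternatives were other scaling, no filter, DESeq2 1.42.0, limma 3.58.1, equal depth, mitochondrial genes or lesions rich in mt-Rnr2 left out, a replicate block, and each mouse and lesion left out in turn. No pair of lesions of a mouse was close enough in counts to be taken for a repeated deposit.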

Additional observations from a re-analysis of the deposited data

Results flagged for a closer look

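Single lesions stood apart from the rest of their group by Dixon's test in 7 of 39 groups checked. Chance flags about 1 in 20 groups of normally distributed values. Counts this low are not so distributed, and the NK lesions come from unlike mice, so no excess over chance is shown. Among the NK lesions, Csf3 in NK2-1 had 0.739 CPM from 10 counts, with the next lesion at 0.221 CPM, and Ptgs2 in NK1-1 had 10.773 CPM, with the next at 5.196 CPM. In mouse KO1, lesion KO1-2 had 3.642 CPM of Tnf from 12 counts, with the next at 0.628 CPM. The same lesion had 2.732 CPM of Il1a from 9 counts, with the next at 0.584 CPM. KO1-2 is a lesion with 58.3% mt-Rnr2, and the part of that share was not tested. Lesion KO1-3 had 0.707 CPM of Il6 from 9 counts, with all other KO1 lesions at 0. In mouse KO2, lesion KO2-4 had 0.918 CPM of Tnf from 11 counts, with the next at 0.224 CPM, and lesion KO2-1 had 6.703 CPM of Ptgs2, with the next at 1.49 CPM.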

How the results depend on the processing

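No member was called between NK and Ctrl in any alternative run. Over all genes tested, 224 were called without the filter on low counts and 21 by DESeq2, and 0 to 4 with a mouse or lesion left out, the 4 without NK2, which also moved the median of all genes to -0.16. Without the filter 2 related genes, Csf3r and Lcn2, were called. The mouse numbers are only shared: deviations correlated by 0.0957 for NK1 and KO1 and by 0.289 for NK2 and KO2. With the mouse number as a replicate block 26 genes were called.

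Il1b and Tnf stayed below 0 in every alternative. The log2 fold change of Lif took the other sign with the block (-0.29), at equal depth (-0.10), without mitochondrial genes (-0.0047) and in the deposited normalized table (-0.14). Without lesions over 40% mt-Rnr2, which removes 6 lesions and all of NK1, it did so for Csf1 (0.32), Csf2 (0.10), Ptgs2 (-0.24) and Il1rn (0.52), and in limma voom over lesions for Csf2 (0.03). With a mouse or lesion left out, log2 fold changes ranged from -1.78 to -0.86 for Il1b, -3.26 to -0.85 for Tnf, -5.77 to -0.05 for Csf2, -1.53 to 0.11 for Csf1, -2.26 to 0.52 for Il1rn, -0.49 to 0.37 for Lif, -0.07 to 1.05 for Ptgs2 and -0.19 to 1.56 for Il1a. The Il1b to Il1rn difference ranged from -1.67 to 0.46. The cause was not tested.

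Members called among the Ctrl mice were 2 without the filter (Il1rn and Il1b), 1 without lesions over 40% mt-Rnr2 (Il1b, adjusted p = 0.0498) and 0 to 2 with a lesion left out. For NK2 against NK1 they were 1 without the filter and 0 to 1 with a lesion left out. In the main fits 2.70% of all genes tested were called among the Ctrl mice and 0% for NK2 against NK1. The shares of all genes called under these alternatives are not given here, so these counts show nothing particular to the members. Depth limits Tnf, Il6, Csf2 and Csf3, each with under 100 counts over all lesions.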
